A study of Homo sapiens with 6 samples.

Results

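The type I interferon response genes are 32 genes listed by symbol, and the list was chosen with earlier results of these data known. They cover the interferon-beta ligand, the cytosolic RNA sensors, the transcription factors of the pathway and the antiviral genes that these factors switch on. Each of the 32 genes was read by every probe set on the array whose only gene symbol in the GEO platform annotation was that gene. This gave 49 probe sets for 31 of the 32 genes, out of 41091 probe sets with a single symbol that cover 19775 genes. STAT2, a subunit of the main interferon-driven transcription factor, had no such probe set and was not analysed here. The arrays came from 76N, a non-tumour epithelial cell line from human breast that was kept in DFCI-1 medium. Of 6 cultures, 3 were transfected with an siRNA against Ecd and 3 with a control siRNA, and per the labels each was a biological replicate. ECD, the target, is the human ortholog of fly ecdysoneless, and the comparison asks which transcripts differ when it is depleted. The labels name no interferon, virus or other inducer in either group, and both groups were transfected. The sources used here do not give the siRNA sequences, the dose or the time between transfection and harvest.

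Type I interferons are cytokines that most cells release when a sensor such as RIG-I (RIGI) or MDA5 (IFIH1) meets foreign RNA in the cytosol. They bind the receptor pair IFNAR1 and IFNAR2, whose kinases JAK1 and TYK2 activate STAT2. A complex that holds STAT2 and IRF9 then binds the interferon-stimulated response element, a DNA motif in the promoters of antiviral genes. Epithelial cells also keep many of these genes at a basal level without added interferon.

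Promoter stretches that carry that motif are shown first, for those genes past the test that had a promoter window and for 1 relative. Promoter windows came from RefSeq (GRCh38.p14), running from 250 bases before to 50 bases after each annotated start, and 25 of the 32 genes had 1 or more. No window was at hand for DHX58, IRF7, IFIT2, MX2, OAS2, OASL and USP18. The motif searched was the core of that element, TTTC, any 2 bases (NN) and TTTC, which reads GAAA, NN and GAAA on the other strand. Both strands were searched and matches may overlap. At least 1 match stood in a window of 15 of the 25 genes (60%), against 1195 of 27305 genes with a window (4.38%). Capitals below mark the matches, each stretch runs 5′ to 3′ on the gene's plus strand, and a match is a description of the letters and not a shown binding site. ISG15 is the gene that rose, IFIT3, IFIT5 and OAS3 are among the genes that fell, and IFIT1 is a neighbour and relative of IFIT3 and IFIT5 that did not pass the test. The stretches lie at chr1:1013364-1013419 (ISG15), chr10:89327821-89327904 (IFIT3), chr10:89414503-89414593 (IFIT5), chr12:112938311-112938491 (OAS3) and chr10:89392487-89392549 (IFIT1), all on the plus strand.
ISG15: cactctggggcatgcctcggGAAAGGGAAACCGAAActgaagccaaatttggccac
IFIT3: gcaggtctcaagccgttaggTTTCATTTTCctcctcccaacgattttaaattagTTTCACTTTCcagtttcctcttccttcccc
IFIT5: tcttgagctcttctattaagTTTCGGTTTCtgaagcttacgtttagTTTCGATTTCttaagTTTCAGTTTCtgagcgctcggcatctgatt
OAS3: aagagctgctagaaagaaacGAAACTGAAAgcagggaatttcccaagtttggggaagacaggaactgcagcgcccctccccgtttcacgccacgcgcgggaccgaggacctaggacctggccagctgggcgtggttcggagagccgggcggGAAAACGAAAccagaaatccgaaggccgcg
IFIT1: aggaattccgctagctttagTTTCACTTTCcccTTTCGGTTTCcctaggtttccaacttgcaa
In ISG15 the 2 matches overlap and span positions -113 to -98 from the start. In IFIT1 they span -116 to -94, and in the IFIT3 window shown the nearer match lies at -122 to -113. IFIT3 has a second annotated start, whose window holds 2 further matches at -94 to -85 and -51 to -42. IFIT5 has 3 matches, the nearest at -4 to 6, and OAS3 has 1 at -143 to -134 and 1 at -12 to -3. The motif thus stood in the windows of genes that rose, that fell and that did not pass the test.

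The depletion and the cell type were checked before the interferon genes. The only ECD probe set gave 588.9, 599.8 and 542.5 with Ecd siRNA and 1076.6, 1011.4 and 1007.2 with control siRNA, a log2 change of -0.82 with an SE of 0.10 (limma adjusted p = 0.000172; two-sided exact permutation p = 0.1, the smallest that 3 against 3 arrays allow). Signals here are MAS5 values on a linear scale, and array medians ran from 134.6 to 146.7 with Ecd siRNA and from 128.7 to 147.6 with control siRNA. Across genes, correlations of log2 signals were 0.977 to 0.981 within groups and 0.952 to 0.961 between groups. The basal keratin genes of mammary epithelium were bright in both groups, with KRT5 at means of 16024 with Ecd siRNA and 16435 with control siRNA and KRT14 at 22350 with Ecd siRNA and 21386 with control siRNA. Summed signals of 5 basal and of 10 luminal markers overlapped between the groups. Single markers did differ at a limma adjusted p under 0.05. The basal marker CDH3 (log2 change 0.38) and the luminal markers GATA3 (0.46) and CD24 (0.25) were higher with Ecd siRNA. The luminal marker KRT18 (-0.52) was lower. The pan-leukocyte marker PTPRC lay near the low end, at 30.7 with Ecd siRNA and 27.1 with control siRNA. The summed signal of 8 leukocyte markers was 569.4 to 621.5 with Ecd siRNA and 697.9 to 869.2 with control siRNA, and that of 10 fibroblast markers was 22778 to 25069 with Ecd siRNA and 19224 to 19929 with control siRNA. Most of the fibroblast sum came from VIM, at means of 16564 with Ecd siRNA and 15016 with control siRNA, and FAP, at 5334 with Ecd siRNA and 2610 with control siRNA (log2 change 1.03, limma adjusted p = 1.70e-05). COL1A1 was higher too (0.52, limma adjusted p = 0.00970), and of the 6 fibroblast markers tested 2 passed as higher and 0 as lower. THY1 had a mean of 354.9 with Ecd siRNA and 451.9 with control siRNA, and COL3A1 23.0 with Ecd siRNA and 55.2 with control siRNA. Arrays of both overlapped between the groups, THY1 did not pass (limma adjusted p = 0.304) and COL3A1 was too dim to be tested. The sum of 6 plasmacytoid dendritic cell markers, cells that make much type I interferon, was 2078 to 2670 with Ecd siRNA and 2174 to 2284 with control siRNA. Most of it came from 1 gene, TCF4, at means of 1803 with Ecd siRNA and 1640 with control siRNA. Of these 6 markers 4 were too dim to be tested, and 0 of the 2 tested passed by limma, so the sum does not show such cells. Of the 8 leukocyte markers 4 were too dim to be tested, and 0 of the 4 tested passed by limma. CD14, 1 of the dim ones, had means of 38.8 with Ecd siRNA and 111.6 with control siRNA. PTPRC and LYZ (115.8 with Ecd siRNA and 94.7 with control siRNA) were higher in mean with Ecd siRNA, and the others lower. The fibroblast and leukocyte sums thus moved with the groups, in opposite directions, the latter on dim signals, and no marker of these lists was at an exact 0. Their part in the interferon gene values was not tested, and in bulk RNA fewer cells of a type and less RNA per cell cannot be told apart. The 3′ over 5′ signal ratios of ACTB and GAPDH, which rise when RNA is degraded, overlapped between the groups (ACTB 1.07 to 1.16 with Ecd siRNA and 1.07 to 1.11 with control siRNA).

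Depletion of Ecd was followed by small changes in a minority of the interferon response genes, and they did not go 1 way. The tetratricopeptide genes IFIT2, IFIT3 and IFIT5 and the oligoadenylate synthetase genes OAS3 and OASL fell, while ISG15, which encodes a ubiquitin-like modifier, rose. Of the 32 genes, 29 had a probe set above the filter on dim signals (84.6), IFNB1 and DHX58 were under it, and STAT2 had none. For each gene the brightest probe set was fitted in limma on log2(signal + 16) together with all 14603 genes above the filter, and the words rose and fell are kept for a Benjamini-Hochberg adjusted p under 0.05. On that test 1 of 29 rose, 5 fell and 23 did not pass. Of all 14603 genes 10.1% rose, 11.0% fell and 21.1% did either, so the 6 of 29 are near the background share. The median log2 change was -0.070 over the 29 and 0.008 over all tested genes, and the median size regardless of sign was 0.18 and 0.21. No member changed more than 2-fold, whereas 495 of all the genes called did. The 95% interval of every one of the 29 changes, without correction for the number of genes, lay inside a 2-fold change either way, the outermost bounds being -0.95 (IFIT2) and 0.98 (BST2). The Ecd siRNA and control siRNA arrays did not overlap in 2 genes that were higher and 9 that were lower, against 18.1% and 18.3% of all tested genes (36.4% in either direction).

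**Figure D1:**
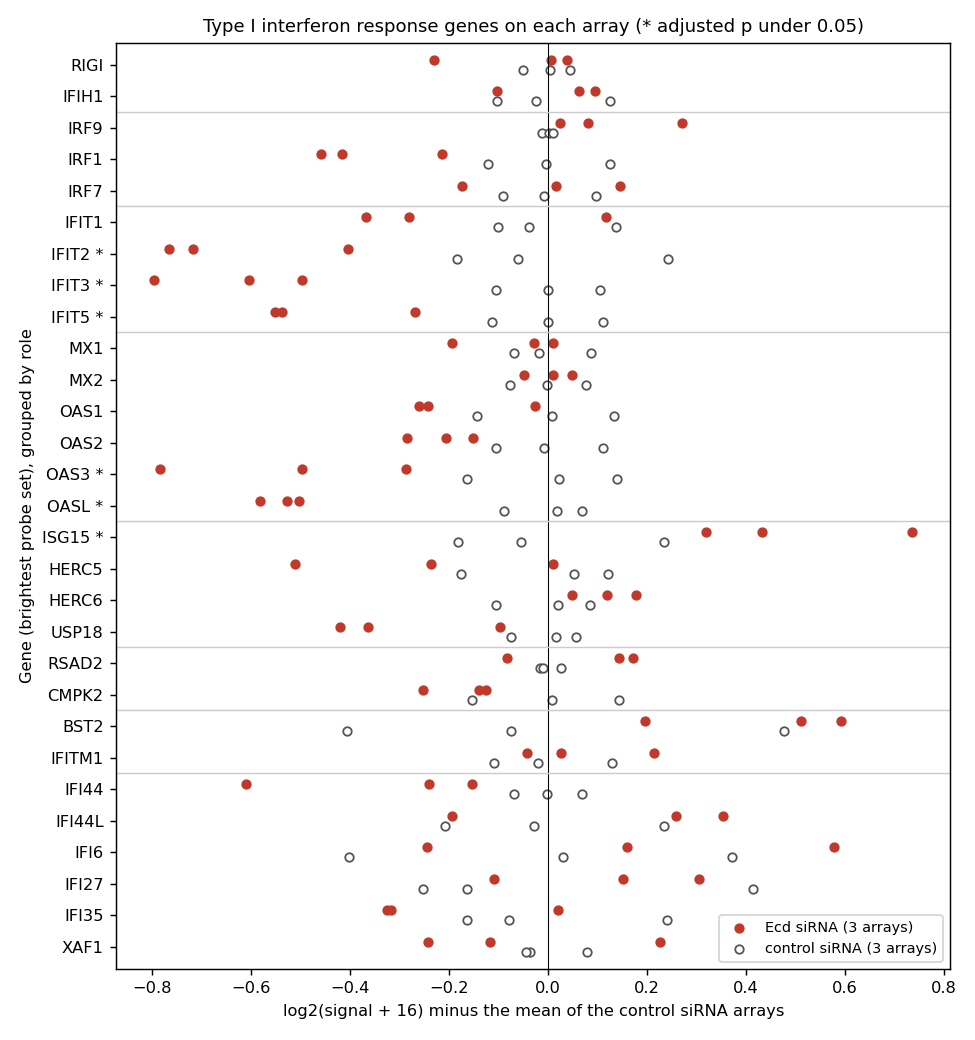
Every array's log2(signal + 16) for the 29 tested interferon response genes, minus the mean of the 3 control siRNA arrays, with genes down the page by role. Filled red points are the 3 Ecd siRNA arrays, drawn above the open points of the 3 control siRNA arrays, and asterisks mark the 6 genes past the adjusted threshold. The red points of IFIT2, IFIT3, IFIT5, OAS3 and OASL lie left of all open points, those of ISG15 lie right of them, and most other genes overlap.

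**Figure D2:**
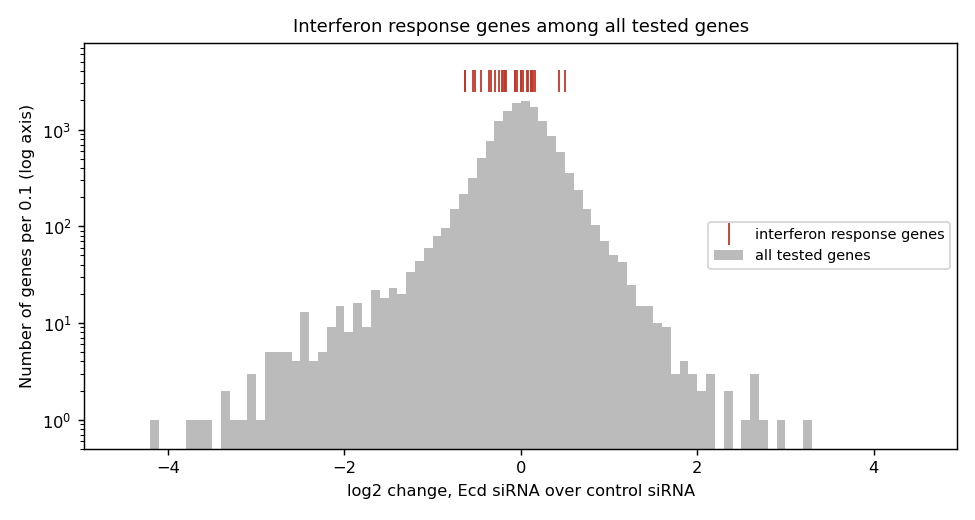
Histogram of the log2 change (Ecd siRNA over control siRNA) of all 14603 tested genes in bins of 0.1, on a log count axis, with red ticks for the 29 interferon response genes. The ticks run from -0.63 to 0.50 and lie over the bulk of the histogram, away from both tails.

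The ligand was at the bottom of the signal range in both groups. IFNB1, which encodes interferon-beta and is induced by RNA sensors, had signals of 10.9, 11.8 and 10.2 with Ecd siRNA and 17.1, 9.7 and 13.0 with control siRNA, under the filter and overlapping. DHX58, which encodes LGP2, a modulator of the RNA sensors, was as dim, at 11.4, 12.7 and 9.5 with Ecd siRNA and 13.5, 12.8 and 12.1 with control siRNA. The table holds no detection calls, so these signals were not told apart from background. Both RNA sensors were bright enough to test and did not pass. RIGI had 856.2, 1035.1 and 1012.0 with Ecd siRNA and 1038.9, 972.5 and 1010.8 with control siRNA (log2 change -0.06, 95% interval -0.28 to 0.16; limma adjusted p = 0.737). IFIH1 had 1128.6, 1003.8 and 1154.5 with Ecd siRNA and 1004.3, 1061.3 and 1179.2 with control siRNA (0.02, interval -0.20 to 0.24; limma adjusted p = 0.927). The sensors' arrays overlapped, and by limma 0 of the 2 passed even at an unadjusted p under 0.05.

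Of the transcription factors, 3 were measured and 0 passed by limma, with 1 at an unadjusted p under 0.05. That one was IRF1, which encodes an early interferon-induced activator, with signals of 496.5, 512.1 and 591.2 in Ecd siRNA arrays and 686.1, 631.4 and 752.1 in control siRNA arrays. All 3 Ecd siRNA arrays lay under all control arrays, and the log2 change of -0.36 (SE 0.12) missed the threshold at a limma adjusted p of 0.0516. It ranged from 0.0391 to 0.159 over the other settings and was under the threshold in 3 of them. IRF9, the DNA-binding partner of STAT2, had 2592.1, 2268.4 and 2180.3 with Ecd siRNA and 2126.7, 2146.4 and 2159.1 with control siRNA (0.13, limma adjusted p = 0.340). Its groups did not overlap, but the margin was small beside the spread of the Ecd siRNA arrays. IRF7, the factor that amplifies interferon production, had means of 636.1 ± 71.7 with Ecd siRNA and 636.1 ± 42.7 with control siRNA (SD, n = 3 each; limma adjusted p = 0.988).

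The IFIT family held the most falls. These genes encode proteins that bind viral RNA and block its translation, and IFIT2, IFIT3, IFIT1 and IFIT5 lie in that order on chromosome 10 in the RefSeq gene table. IFIT3 had signals of 1412.8, 1234.6 and 1522.6 with Ecd siRNA and 2317.3, 2002.6 and 2153.7 with control siRNA. Every Ecd siRNA array lay well below every control array, and the mean was 64.4% of the control mean (log2 change -0.63, SE 0.10; limma adjusted p = 0.00109). IFIT2 had 450.8, 435.1 and 563.8 with Ecd siRNA and 719.7, 659.5 and 891.8 with control siRNA, again without overlap (-0.63, SE 0.14; limma adjusted p = 0.0106). IFIT5 had 697.9, 690.4 and 843.4 with Ecd siRNA and 1103.1, 1019.5 and 941.9 with control siRNA, likewise apart (-0.45, SE 0.11; limma adjusted p = 0.0152). IFIT1, the founding member, had 1817.6, 1295.8 and 1377.4 with Ecd siRNA and 1631.8, 1561.3 and 1845.2 with control siRNA. The first Ecd siRNA array lay among the controls, and the change of -0.18 (interval -0.46 to 0.10) did not pass (limma adjusted p = 0.389). Leaving out Ecd siRNA replicate 1 gave -0.32 and a limma adjusted p of 0.0488. IFIT5 lost its call without Ecd siRNA replicate 2 (0.0575) and without control siRNA replicate 1 (0.0727).

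**Figure D3:**
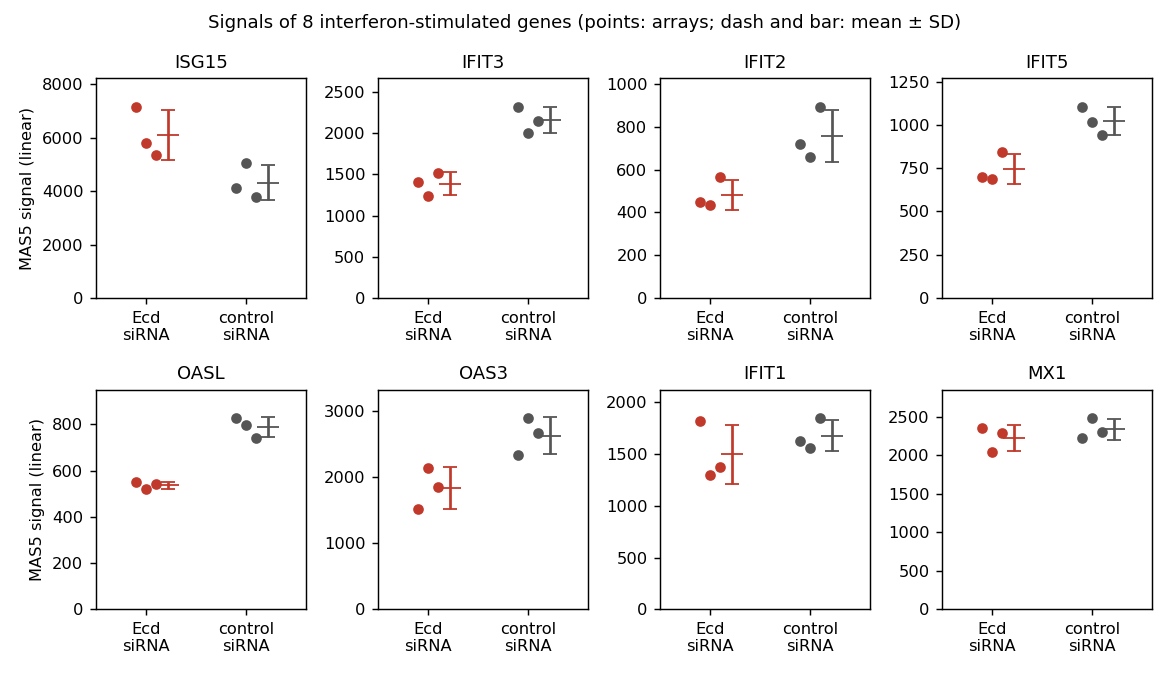
MAS5 signals (linear axis from 0) of 8 interferon-stimulated genes, with the 3 Ecd siRNA arrays in red on the left of each panel and the 3 control siRNA arrays in grey on the right. The dash and bar beside the points give the mean and SD. ISG15 is higher with Ecd siRNA, IFIT3, IFIT2, IFIT5, OASL and OAS3 are lower without overlap, and IFIT1 and MX1 overlap.

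Among the 6 MX and OAS genes, OASL and OAS3 fell and the other 4 did not pass. The OAS enzymes make the second messenger that activates the antiviral nuclease RNase L, while OASL lacks that activity and acts with RIG-I. OASL had 550.1, 520.3 and 540.6 with Ecd siRNA and 825.4, 796.8 and 739.1 with control siRNA (log2 change -0.54, SE 0.10; limma adjusted p = 0.00339). Its arrays were tight within each group and far apart between them, with the Ecd siRNA mean at 68.2% of the control mean. OAS3 had 1514.9, 2143.9 and 1851.8 with Ecd siRNA and 2338.7, 2888.0 and 2660.2 with control siRNA, with no overlap but a wider spread (-0.52, SE 0.13; limma adjusted p = 0.0134). Its call was lost without the intensity trend (0.0680). OAS2, which lies beside OAS3 on chromosome 12, had 2666.5, 2768.2 and 2524.6 with Ecd siRNA and 2861.2, 3062.2 and 3325.8 with control siRNA. These did not overlap either, but the change of -0.21 did not pass (limma adjusted p = 0.0845). OAS1 was at -0.18 (limma adjusted p = 0.319). The dynamin-like GTPase genes showed little difference. MX1, a standard marker of interferon exposure, had 2350.0, 2036.7 and 2288.1 with Ecd siRNA and 2223.0, 2477.2 and 2301.1 with control siRNA (-0.07, interval -0.25 to 0.12), and MX2 had means of 184.4 ± 6.7 with Ecd siRNA and 184.0 ± 10.7 with control siRNA (SD, n = 3 each). By limma neither MX gene passed, at adjusted p = 0.632 and 0.993.

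ISG15 was the only 1 of the 29 genes that rose. Its product is conjugated to other proteins by HERC5 and removed by the protease USP18, which also dampens signalling at the interferon receptor. ISG15 had 7148.1, 5787.4 and 5352.8 with Ecd siRNA and 4128.0, 5041.1 and 3778.3 with control siRNA. The groups did not overlap, although the lowest Ecd siRNA array and the highest control array were close, and the mean was 141% of the control mean (log2 change 0.50, SE 0.12; limma adjusted p = 0.0162). The call was lost without control siRNA replicate 1 (0.0623), without control siRNA replicate 3 (0.0603) and without the intensity trend (0.0849). Its ligase and protease genes did not rise with it. HERC5 had 352.9, 295.0 and 240.8 with Ecd siRNA and 382.2, 363.8 and 308.2 with control siRNA (-0.24, limma adjusted p = 0.366), HERC6, a related ligase gene, was at 0.12 (limma adjusted p = 0.426), and USP18 had 274.0, 285.6 and 346.7 with Ecd siRNA and 376.4, 352.5 and 387.6 with control siRNA (-0.29, limma adjusted p = 0.185). USP18 arrays did not overlap and lay lower with Ecd siRNA, against the direction of ISG15.

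The remaining effector genes did not pass the test. RSAD2, which encodes the antiviral enzyme viperin, and CMPK2, the nucleotide kinase gene that neighbours it on chromosome 2, were at 0.08 and -0.17 in log2 change. BST2, which encodes tetherin, had 242.8, 257.5 and 192.0 with Ecd siRNA and 236.8, 121.1 and 156.5 with control siRNA, the widest interval of the 29 (-0.11 to 0.98). Its arrays overlapped, and a change of nearly 2-fold lies within that interval as 0 does. IFITM1, which encodes a membrane protein that blocks virus entry, was at 0.07 (interval -0.14 to 0.27). Among the 5 IFI genes, named for induction by interferon and without a shared function, and XAF1, 0 passed by limma and 1 had an unadjusted p under 0.05. That one was IFI44, with 1075.5, 1011.0 and 779.0 with Ecd siRNA and 1141.3, 1197.1 and 1257.3 with control siRNA (-0.33, limma adjusted p = 0.0801). Leaving out Ecd siRNA replicate 1 gave -0.43 for IFI44 (limma adjusted p = 0.0405). IFI44L, its neighbour on chromosome 1, was at 0.14, the mitochondrial protein gene IFI6 at 0.16, IFI27 at 0.12, IFI35 at -0.21 and the pro-apoptotic gene XAF1 at -0.04, with limma adjusted p between 0.407 and 0.874. IFI6 varied most between cultures, from 876.9 to 1563.7 with Ecd siRNA and from 785.0 to 1352.4 with control siRNA.

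Separate probe sets of a gene did not always give the same answer. Of the 29 genes, 12 had more than 1 probe set above the filter, and in 6 of these all their probe sets pointed 1 way. When each of the 43 probe sets above the filter was tested on its own among all single-symbol probe sets, 1 passed as higher and 5 as lower, in the 6 genes already named. Of all 27009 probe sets in that test, 2243 passed as higher and 2329 as lower. The second probe set of IFIT3 was also lower in every Ecd siRNA array, at 816.7, 729.0 and 780.2 against 1065.3, 897.6 and 909.5 in control siRNA arrays (log2 change -0.30, limma adjusted p = 0.0888). The second probe set of OASL was at -0.19 (limma adjusted p = 0.313), and that of IFIT2 at -0.07 (0.801). IFIT5 had a second probe set that went the other way, at 551.1, 449.9 and 422.9 with Ecd siRNA and 421.0, 400.0 and 490.8 with control siRNA (0.11, limma adjusted p = 0.673). As the mean of their probe sets, IFIT2 (-0.35, limma adjusted p = 0.0641) and IFIT5 (-0.17, limma adjusted p = 0.235) no longer passed, while IFIT3 (-0.46, 0.00805) and OASL (-0.36, 0.0209) did. IFIT2, IFIT3, IFIT5 and OASL thus each passed in 1 of 2 probe sets. OAS3 had a second, dim probe set with signals of 47.6, 45.7 and 34.8 with Ecd siRNA and 99.4, 77.3 and 56.4 with control siRNA, in the same direction as the bright one. IRF1 was lower in both of its probe sets, the second at -0.52 (limma adjusted p = 0.0807). IFI44 split, with a dim probe set at 120.8, 233.2 and 115.5 with Ecd siRNA and 94.5, 99.0 and 80.6 with control siRNA (0.62, limma adjusted p = 0.196), against -0.33 in the bright one. IFIH1 had a dimmer probe set at 191.4, 197.6 and 165.7 with Ecd siRNA and 292.6, 266.2 and 218.3 with control siRNA (-0.45, limma adjusted p = 0.121). Some of these probe sets, among them those used for ISG15, IFIT5 and OASL, have names ending in _s_at and can bind more than 1 transcript, and what part of each transcript a probe set reads was not determined here.

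**Figure D4:**
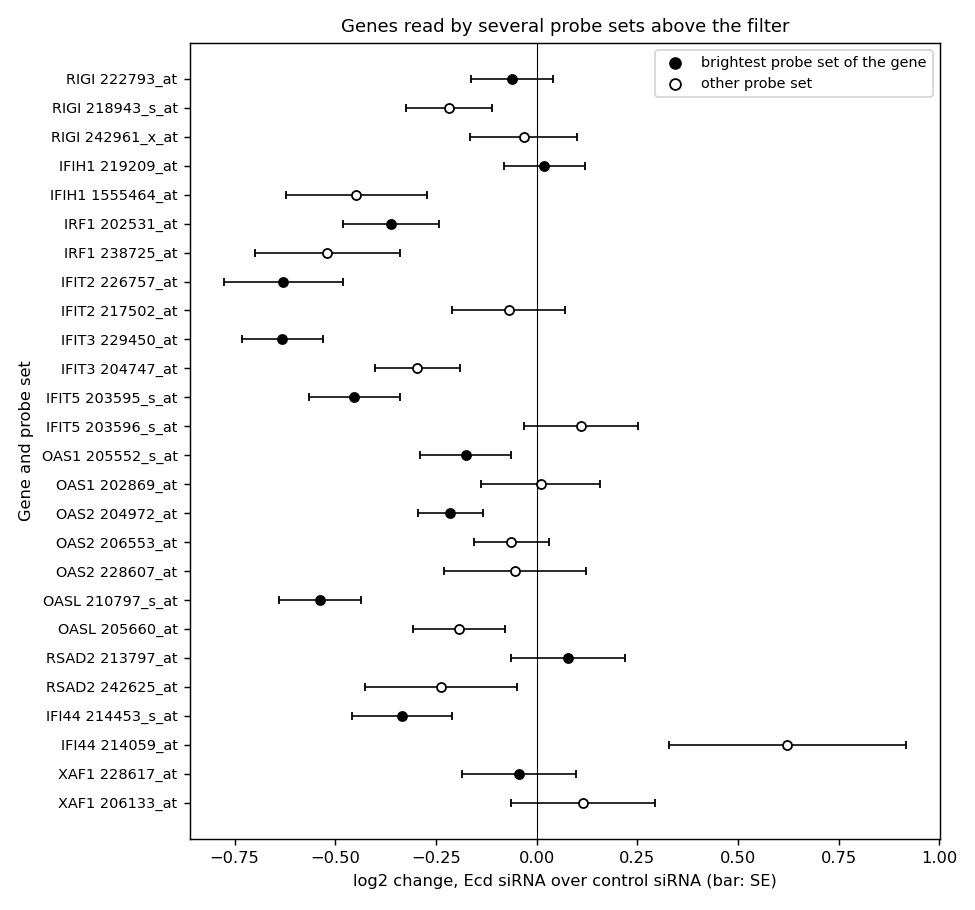
Log2 change (Ecd siRNA over control siRNA, bar SE) of each probe set above the filter for the 12 genes that have several, each tested on its own. Filled points are the brightest probe set of a gene and open points its others. Both probe sets of IFIT3, OASL and IRF1 lie left of 0, those of IFIT5 and IFI44 lie on opposite sides, and the second IFIT2 probe set lies near 0.

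The wider pathway also moved in both directions. Beyond the 32 genes, 5 lists with 122 genes were set beside them, of which 96 were tested, 16 rose (16.7%) and 6 fell (6.25%), against 10.1% and 11.0% of all tested genes. When all arrays were brought to a common median 8 of the 96 rose and 5 fell. In that setting 996 of all 14603 genes rose and 1207 fell, against 1468 and 1607 in the main setting. Of 20 other interferon ligand genes, 17 had a probe set, 8 of these were above the filter, and by limma 0 passed, also at an unadjusted p under 0.05. IFNE, an epithelial type I interferon gene, was at 0.41 (limma adjusted p = 0.255) and the type III interferon gene IFNL2 at -0.19 (0.530). Near-identical interferon-alpha genes can share probes, so their signals are uncertain.

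Of 13 tested receptor and JAK-STAT genes 2 rose and 0 fell by limma, with 1 lower at an unadjusted p under 0.05. JAK1, a kinase of the interferon receptors, had 4557.4, 3765.3 and 4145.5 with Ecd siRNA and 3243.7, 3219.5 and 3264.6 with control siRNA (0.35, SE 0.08; limma adjusted p = 0.00963). IFNGR1, the ligand-binding chain of the type II interferon receptor, was at 0.40 (limma adjusted p = 0.0196). Both rises were lost with a common median of the arrays, at adjusted p of 0.0722 for JAK1 and 0.0691 for IFNGR1, and that of IFNGR1 was also lost on leaving out Ecd siRNA replicate 1 or 3 or control siRNA replicate 1 or 2 (0.0517 to 0.0711). A second probe set of IFNGR1 rose on its own test (0.57, limma adjusted p = 0.000984), as did the mean of its probe sets (0.57, 0.0106). Averaging the probe sets of JAK1 gave 0.16 (0.519). In their brightest probe sets the type I receptor genes did not pass, with IFNAR1 at 0.26 (limma adjusted p = 0.192), IFNAR2 at -0.36 (0.166), or 0.18 in its probe set without a shared-transcript suffix (0.322), and the kinase gene TYK2 at 0.15 (0.514). A second probe set of IFNAR1, with 554.7, 434.5 and 471.8 with Ecd siRNA and 365.5, 342.7 and 287.3 with control siRNA, was higher on its own test (0.53, limma adjusted p = 0.0332), and another was at -0.19 (0.572). IFNAR2 was at -0.53 without control siRNA replicate 3 (limma adjusted p = 0.0422).

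Among 13 tested nucleic acid sensing genes, STING1 fell and TLR3 rose. STING1, which encodes the adaptor of cytosolic DNA sensing, had 387.6, 461.8 and 487.2 with Ecd siRNA and 824.1, 1018.3 and 984.6 with control siRNA. The Ecd siRNA mean was 47.3% of the control mean with no overlap (-1.05, SE 0.13; limma adjusted p = 0.000215), and the second probe set of STING1 fell too (-0.66, limma adjusted p = 0.00504). STING1 kept its call in each of the other settings, with log2 changes of -1.15 to -0.86. TLR3, an endosomal receptor for double-stranded RNA, had 955.4, 797.2 and 946.0 with Ecd siRNA and 669.2, 697.4 and 631.1 with control siRNA (0.42, limma adjusted p = 0.0176). The call of TLR3 was lost on leaving out Ecd siRNA replicate 1 or 3 or control siRNA replicate 1 or 3 (0.0550 to 0.0610), and with a common median (0.0569). As the mean of its probe sets TLR3 came to 0.58 and narrowly missed the threshold (limma adjusted p = 0.0515). IRF3, the factor that switches on IFNB1, was at -0.29 (limma adjusted p = 0.108), or -0.39 without Ecd siRNA replicate 2 (0.0448).

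In the list of other interferon-stimulated genes 5 of 33 rose and 3 fell, with a median of 0.06. LGALS3BP, a secreted glycoprotein gene, had 6962.4, 7102.4 and 6894.8 with Ecd siRNA and 5111.9, 5237.5 and 5120.3 with control siRNA (0.44, SE 0.06; limma adjusted p = 0.000420). The 3 that fell were the phospholipid scramblase gene PLSCR1 (-0.57, limma adjusted p = 0.000810), the mitochondrial RNA-processing gene PNPT1 (-0.55, 0.00179) and the surface protein gene LY6E (-0.76, 0.00689). The other 4 that rose, named after their values were seen, were ISG20 (0.60), TRIM38 (0.50), SAMD9 (0.34) and TRIM22 (0.22). With a common median SAMD9 (limma adjusted p = 0.139) and TRIM22 (0.249) lost their calls, which leaves 3 rises. Leaving out Ecd siRNA replicate 1 or 3 or control siRNA replicate 1 or 2 also ended the call of SAMD9 (0.0518 to 0.121), those or control siRNA replicate 3 that of TRIM22 (0.0600 to 0.140), and control siRNA replicate 1 that of TRIM38 (0.0591). As the mean of its probe sets TRIM38 came to 0.27 and did not pass (limma adjusted p = 0.0504). PLSCR1 fell in both of its probe sets above the filter but not as the mean of all its probe sets (-0.28, limma adjusted p = 0.193). In LGALS3BP, PLSCR1, PNPT1 and LY6E the groups did not overlap.

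The list of antigen presentation and interferon-gamma genes held 8 rises and 2 falls among 29, with a median of 0.03. GBP2, which encodes an interferon-induced guanylate-binding GTPase, had 1740.7, 1819.7 and 1787.1 with Ecd siRNA and 689.6, 620.8 and 637.7 with control siRNA. That was 274.5% of the control mean (1.44, SE 0.09; limma adjusted p = 1.74e-06), its second probe set rose as well (1.47, limma adjusted p = 0.000222), and it was called in every setting tried. The non-classical class I genes HLA-F (0.56, limma adjusted p = 0.000296) and HLA-G (0.66, 0.00142) rose. Their probe sets have names ending in _x_at and can bind other class I transcripts, so which class I gene they read is uncertain. As the mean of its probe sets HLA-G came to 0.47 (limma adjusted p = 0.106). The other rises, named after their values were seen, were the chemokine gene CXCL10 (0.50), HLA-E (0.39), GBP3 (0.36), HLA-B (0.31) and HLA-C (0.25). The probe sets used for HLA-E, HLA-B and HLA-C also end in _x_at, and the caution on class I transcripts holds for them too. With a common median GBP3 (limma adjusted p = 0.0825), HLA-B (0.0623) and HLA-C (0.0842) lost their calls, which leaves 5 rises, and HLA-B was also lost without control siRNA replicate 2 (0.0722) or 3 (0.0519). The 2 that fell were the immunoproteasome subunit gene PSMB9 (-0.66, limma adjusted p = 0.000499) and the tryptophanyl-tRNA synthetase gene WARS1 (-0.43, 0.0250). PSMB9 had 723.8, 663.3 and 707.7 with Ecd siRNA and 1090.1, 1106.6 and 1130.5 with control siRNA, wholly apart. Without Ecd siRNA replicate 2 or 3 or control siRNA replicate 1 or 3 WARS1 lost its call (limma adjusted p = 0.0681 to 0.0939). That call was also lost with a common median (0.0588) and without the intensity trend (0.0897). The second probe set of WARS1 did fall (-0.64, limma adjusted p = 0.00211). GBP2 and PSMB9, which interferon-gamma is known to induce, thus moved in opposite directions.

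**Figure D5:**
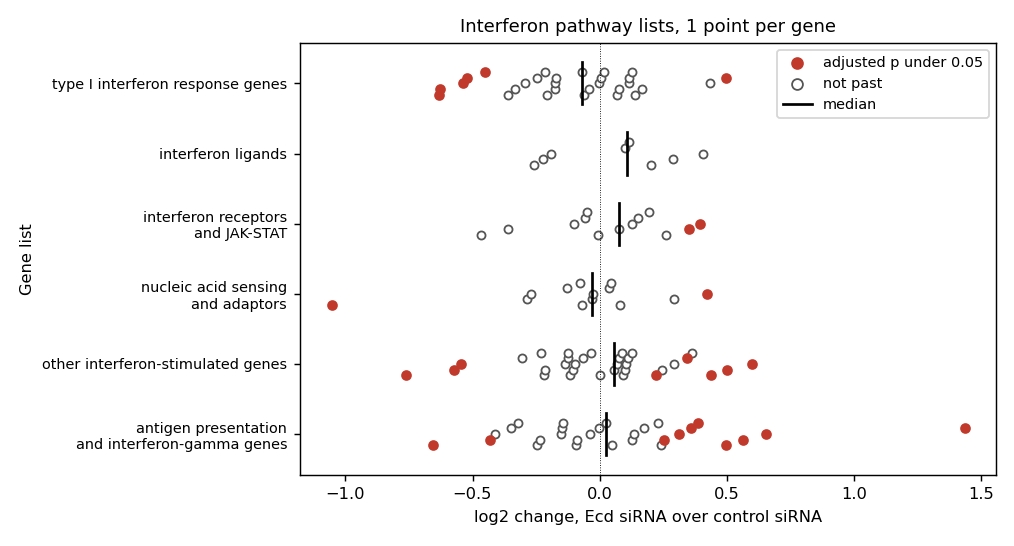
Log2 change (Ecd siRNA over control siRNA) of each tested gene in the type I interferon response set and in 5 other lists of the interferon pathway, 1 point per gene. Filled red points passed the adjusted threshold, open points did not, and the black bar is the list median. Medians lie between -0.07 and 0.11, and the outermost points are STING1 at -1.05 and GBP2 at 1.44.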

How the data were processed

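Expression was measured by 1-colour Affymetrix arrays in 6 cultures. Each probe set has 1 deposited intensity per array, a MAS5 signal per the submitters' processing notes, whose version and scaling target are unknown here. The mean between percentiles 2 and 98 was 499.98 to 500.25 on every array, so signals were used without rescaling, and a shift common to all transcripts is invisible. Among 54675 probe sets, 41091 name a single gene and 1801 more than 1, while 11721 name none and 62 are Affymetrix controls.

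Each gene was read by its probe set with the highest mean log2(signal + 16), and the upper 60% of probe sets by that mean were tested (a signal of 84.6). A first run took the mean of linear signals for this step; it is kept as an alternative. Fold changes are on this log2 scale, which understates those of dim genes. The groups were compared by limma 3.58.1 (lmFit, eBayes with intensity trend; R 4.3.3) without covariates, and limma's test gave every adjusted p. The fit was also run on simulated data with independent noise and far fewer changed genes than were called here, and nothing is drawn from that run.

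The members and lists were chosen with earlier results of these data known. Named genes were all members, ECD, IFNAR1, IFNAR2, JAK1, TYK2, IRF3 and, per list, up to 4 genes with the smallest adjusted p past the threshold, or 2 where fewer than 2 passed, and others are marked as chosen after their values were seen. A gene this rule names is not reported here. WARS1, the IFIT1 promoter and several of the cell type markers were so chosen. Alternatives changed the pseudocount (1 or 64), the scaling (quantile or common median), the filter (none or the upper 40%), the probe set used, the trend, the weighting of arrays and a block for replicate number, and left out each array in turn. Having only 3 cultures per group makes the estimates imprecise. The limma p-values do not rest on the spread among a gene's own cultures alone. That spread was drawn toward the spread of the other tested genes, in the main fit toward that of genes with similar signal. Scan batches were not checked.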

Additional observations from a re-analysis of the deposited data

How the results depend on the processing

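Of the 6 calls among the 29 genes, that of IFIT3 was kept in all alternatives, IFIT2, OAS3 and OASL lost theirs in 1 each, IFIT5 in 3 and ISG15 in 4, and 0 turned direction past the threshold. OASL came to -0.19 where names ending in _s_at and _x_at were avoided (limma adjusted p = 0.298). The count of genes that rose was 0 without the intensity trend, by limma, with 1 at an unadjusted p under 0.05. It was 0 to 1 with each array left out, being 0 without control siRNA replicate 1 or 3 (2 and 1 unadjusted). The count that fell was 3 as the mean of probe sets, where 1220 of all 14603 genes fell. It was 4 to 7 with each array left out, where 1163 to 1517 of all genes fell. The median log2 change was -0.17 with the upper 40% filter and -0.14 to -0.079 with each array left out, the lowest without Ecd siRNA replicate 1. In the 5 other lists 8 genes rose with a common median and 10 without the trend, and 12 to 16 with each array left out. Of all 14603 genes 996, 1071 and 1043 to 1329 rose in those settings, against 1468 in the main one. The rises lost without the trend were those of JAK1, IFNGR1, SAMD9, TRIM22, HLA-B and HLA-C (limma adjusted p = 0.0580 to 0.134). With every probe set tested, 30 of 190 probe sets in those lists rose and 10 fell, against 2243 and 2329 of all 27009 probe sets. The cause of these shifts was not tested, and some of these settings also changed the number of probe sets tested. A filter on mean linear signals, used in a first run, gave 3092 genes in place of 3075 and the same 1 and 5 members. The ECD change was -0.85 to -0.77 throughout. Deviations of same-numbered arrays from their group means correlated across genes at -0.01, 0.08 and 0.15. Those of differently numbered arrays correlated at -0.13 to 0.06, so replicates 2 and 3 showed a weak sign of pairing. The main fit did not take the numbers as pairs. With the replicate block 1 of the 29 rose and 6 fell, IRF1 being the added one (limma adjusted p = 0.0425). In that setting 1582 of all 14603 genes rose and 1695 fell, 3277 in all. IFNB1 and DHX58 had no test in the main setting, and without the filter, tried after seeing the data for each probe set, they were at -0.11 and -0.08 (adjusted p = 0.797 and 0.838).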
